A study of Homo sapiens with 9 samples.

Results

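NADK, the cytosolic NAD kinase, was followed through a pooled CRISPR knockout screen by the 4 single guide RNAs (sgRNAs) that target it, out of 3152 sgRNAs in the table. It is 1 of 763 genes that the library targets. NADK was chosen by its low values under pralatrexate relative to vehicle in these same libraries, so its values in that comparison are a description and carry no test. The comparison of vehicle with baseline was tested, and it shares its vehicle libraries with the comparison that chose the gene.

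RH4, a human rhabdomyosarcoma line that carries the PAX3::FOXO1 fusion, was infected with the Brunello kinome library at 1000-fold coverage and selected with 0.25 µg/ml puromycin. Cells of all 3 groups therefore carry an sgRNA and the resistance marker, and also Cas9, as the study calls the screen CRISPR/Cas9. The 3 baseline libraries were taken at the end of 72 h of selection, and after 72 h of recovery the remaining cells received vehicle (3 libraries) or 1.5 nM pralatrexate (3 libraries) and were harvested on day 10. The study's text describes the selection as longer in one place, so the interval between baseline and the start of treatment is uncertain, and it calls the repeats of the screen both cultures and technical replicates, so a p-value here speaks to the variation among libraries, part or all of which may be technical. RH4 is a single line, and counts of sgRNAs in genomic DNA carry no expression, so the cell type could not be checked against marker genes, and neither editing nor NADK protein was measured here.

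NADK phosphorylates NAD to NADP, whose reduced form, NADPH, supplies electrons to biosynthesis and to antioxidant defence. Pralatrexate is an antifolate that inhibits dihydrofolate reductase, an enzyme that uses NADPH to reduce dihydrofolate to tetrahydrofolate, the carrier of one-carbon units for thymidylate and purine synthesis. NADK2 is the mitochondrial NAD kinase, and NMRK1 and NMRK2 phosphorylate nicotinamide riboside, a precursor of NAD. In a pooled knockout screen each sgRNA marks the cells that carry it, and its share of the reads follows the share of those cells in the culture without counting the cells themselves.

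In GRCh38, with GENCODE annotation, NADK lies on the minus strand of chromosome 1 from 1751232 to 1780457. Its canonical transcript has 12 exons and encodes 446 residues, and no other annotated gene overlaps the span. The files name the NADK sgRNAs Brunello_Kin_A_2493 to 2496, called here by these numbers, and give neither their sequences nor the positions they cut, so which exon each one targets was not analysed here.

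The libraries held 2468136 to 4602712 reads, a mean of 783 to 1460 per sgRNA, with the lowest total in pralatrexate library 2. The NADK sgRNAs were less abundant at baseline than the median sgRNA, which had 1227 reads on average. sgRNA 2493 had 694 reads, 2494 had 1087, 2495 had 796 and 2496 had 961, so that between 13.4% and 37.9% of the 3145 sgRNAs tested lay below them. Each NADK sgRNA was counted 259 to 1398 times in every library, which gives a counting error of 2.67% to 6.21% per value. The reads carry no molecular identifiers, so this covers counting error only. Between libraries of a group, the coefficient of variation of the NADK sgRNAs was larger, from 6.90% for 2496 at baseline to 29.8% for 2496 under pralatrexate.

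Levels are given below as CPM, a library's reads brought to a common total, after scaling by the trimmed mean of M-values, which sets the middle of the sgRNA distribution equal between libraries. sgRNA 2496, the member that differed most between groups, stood at 234, 235 and 264 CPM in the baseline libraries and at 191, 246 and 209 CPM in the vehicle libraries. Under pralatrexate it stood at 89.7, 119 and 65.0 CPM. All 3 pralatrexate libraries lay below every vehicle and baseline library, while vehicle and baseline overlapped. The lowest of these values rested on 277 reads, with an exact 95% Poisson interval of 57.6 to 73.2 CPM. That interval covers counting error alone and not the larger variation between libraries.

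sgRNA 2495 stood at 198, 216 and 186 CPM at baseline and at 193, 229 and 233 CPM under vehicle. Its pralatrexate libraries stood at 143, 105 and 141 CPM. Here too every pralatrexate library was lower than all libraries of the other groups, with the lowest value in library 2, whereas 2496 was lowest in library 3.

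sgRNA 2493 stood at 188, 149 and 194 CPM at baseline and at 202, 165 and 127 CPM under vehicle. Under pralatrexate it stood at 159, 140 and 110 CPM. The groups overlapped, because vehicle library 3 was lower than 2 of the pralatrexate libraries and baseline library 2 was lower than 1 of them.

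sgRNA 2494, the most abundant of the NADK sgRNAs, stood at 277, 298 and 243 CPM at baseline and at 268, 275 and 317 CPM under vehicle. Its pralatrexate libraries stood at 270, 235 and 292 CPM. The values of the 3 groups were interleaved, and pralatrexate library 1 was slightly above its same-numbered vehicle library. Thus 2 of the 4 NADK sgRNAs had every pralatrexate library below every vehicle library, a pattern found in 4.61% of the 3145 sgRNAs; this contrast chose the gene.

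**Figure D1:**
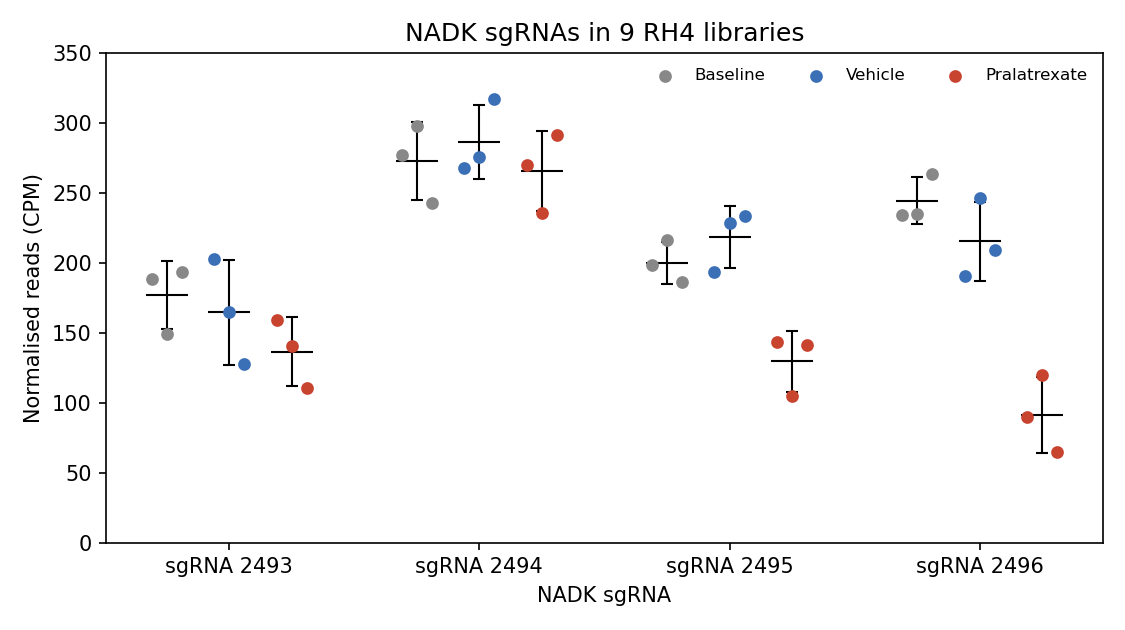
Normalised reads (CPM, linear axis from 0) of the 4 NADK sgRNAs in baseline (grey), vehicle (blue) and pralatrexate (red) libraries, each point 1 library (1 to 3 from left to right), with the mean and SD of 3 libraries in black. The pralatrexate points of sgRNA 2495 and 2496 lie below all other points of the same sgRNA, whereas those of 2493 and 2494 overlap with vehicle.

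The make-up of the NADK reads differed between the groups. sgRNA 2496 supplied 27.2% of the NADK reads at baseline, 24.6% under vehicle and 13.9% under pralatrexate. The share of 2494 was 30.7%, 32.4% and 43.3% in the same order. Under pralatrexate, 2494 alone therefore supplied more NADK reads than 2495 (21.3%) and 2496 combined, and in a sum over reads it weighs most.

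Over the gene, the mean of the 4 sgRNAs on the log2 CPM scale was 7.80, 7.77 and 7.78 in the baseline libraries. It was 7.73, 7.82 and 7.72 in the vehicle libraries and 7.27, 7.16 and 7.04 in the pralatrexate libraries. The means were 7.78 ± 0.01, 7.76 ± 0.05 and 7.16 ± 0.11 (SD, n = 3), so baseline and vehicle were neighbours within their spread and pralatrexate stood apart below both. As summed CPM on the library totals, NADK held 876 to 887 at baseline, 862 to 914 under vehicle and 602 to 669 under pralatrexate.

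**Figure D2:**
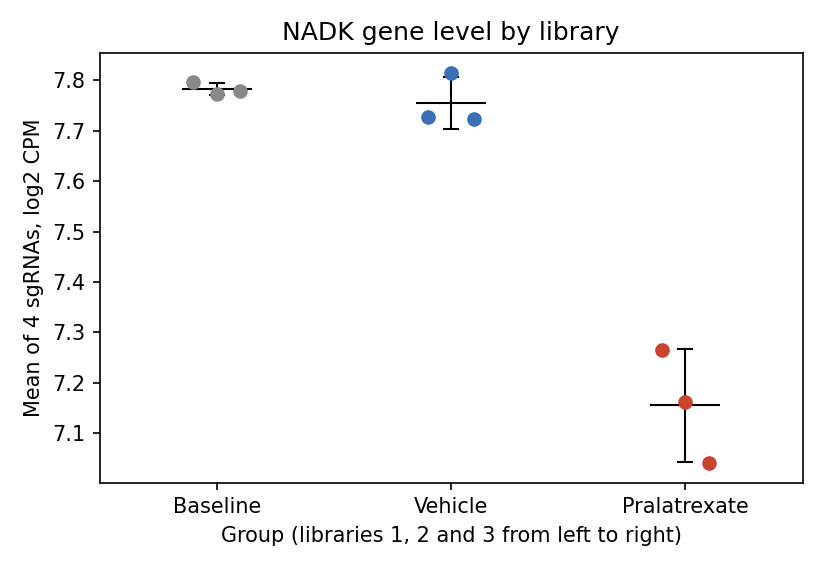
Mean log2 CPM of the 4 NADK sgRNAs in each library (points, libraries 1 to 3 from left to right in each group) with the group mean and SD (n = 3); the axis does not start at 0. Baseline and vehicle libraries lie between 7.72 and 7.82, and the pralatrexate libraries between 7.04 and 7.27.

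The comparison of vehicle with baseline asks whether cells that carry NADK sgRNAs were lost during growth without drug. NADK passed the test in neither direction. Across the 4 sgRNAs the mean log2 fold change was −0.02 (0.985-fold), and NADK was not called in either direction (adjusted p = 1 by robust rank aggregation of edgeR statistics over all genes, for lower and for higher). The same test called 6.68% of the 763 genes lower and 0.393% higher, 51 and 3 genes. A limma fit on the gene means gave −0.03 with a 95% interval of −0.18 to 0.12 and an adjusted p of 0.815.

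sgRNA by sgRNA, the vehicle against baseline log2 fold change was −0.11 (95% interval −0.52 to 0.31) for 2493 and 0.07 (−0.22 to 0.36) for 2494. It was 0.13 (−0.23 to 0.48) for 2495 and −0.18 (−0.57 to 0.21) for 2496. In edgeR's quasi-likelihood test 0 of the 4 passed (adjusted p = 0.566 to 0.778, unadjusted p = 0.355 to 0.610), likewise 0 in DESeq2 (adjusted p = 0.531 to 0.762). The edgeR test called 19% of the 3145 sgRNAs in either direction. No NADK sgRNA had vehicle libraries that all lay outside the baseline range, which 35.5% of the sgRNAs did. The NADK sgRNAs differed little among themselves in this comparison. The SD over the 4 was 0.145 on the log2 scale, the 527th largest of 763 genes, against a median of 0.191.

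The values of NADK relative to the control sgRNAs differ from those relative to zero. The 99 non-targeting sgRNAs, which match no human gene, were higher in vehicle than at baseline by a median of 0.31 (log2), while the median over the other 762 genes was 0.02. Set against the non-targeting median, the NADK mean was −0.34, and the 4 sgRNAs stood at −0.42, −0.24, −0.19 and −0.49 in the order of their numbers. sgRNAs 2493 and 2496 lay below the lowest non-targeting sgRNA (−0.05), and 2494 and 2495 lay within the non-targeting range. Counted from the lowest of 3145 sgRNAs, 2496 was in place 824 and 2493 in place 1047. Values below the non-targeting range were thus common in the library and not particular to NADK. When the libraries were scaled on the non-targeting sgRNAs, 2496 was lower in vehicle than in baseline (−0.51, adjusted p = 0.0315 by edgeR). The gene was at −0.35 and was not called (adjusted p = 1, rank aggregation). Rank aggregation orders sgRNAs against one another, so non-targeting scaling, which shifts them largely alike, changes it little. Whether NADK as a gene lay below the non-targeting sgRNAs was not tested. With this scaling the edgeR test called 1402 of the 3145 sgRNAs, 1389 of them lower. A lower call was therefore common in the library and not particular to 2496.

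With pralatrexate against vehicle, the contrast on which NADK was selected, all 4 log2 fold changes were below 0. They were −0.27 ± 0.20 (SE) for 2493, −0.11 ± 0.14 for 2494, −0.75 ± 0.18 for 2495 and −1.25 ± 0.20 for 2496, or 0.829, 0.928, 0.595 and 0.421-fold. Ordered from the most reduced of 3145 sgRNAs, 2496 was in place 1, 2495 in place 7, 2493 in place 151 and 2494 in place 740. sgRNAs 2495 and 2496 lay below the lowest of the non-targeting sgRNAs, which ran from −0.43 to 0.47 with a median of −0.00, and the other 2 lay within that range.

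The gene mean was −0.59 on the log2 scale, or 0.663-fold. Paired by library number, it was −0.46, −0.65 and −0.68. Within those pairs 2495 ran from −1.12 to −0.43 and 2496 from −1.68 to −1.04, always lower, and 2493 ran from −0.35 to −0.21. sgRNA 2494 was at 0.01, −0.23 and −0.12, so it was lower in 2 of 3 pairs. The gene mean moved most when its strongest sgRNA was left out. Without 2496 it was −0.38 and without 2495 it was −0.54, whereas without 2494 it was −0.76.

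**Figure D3:**
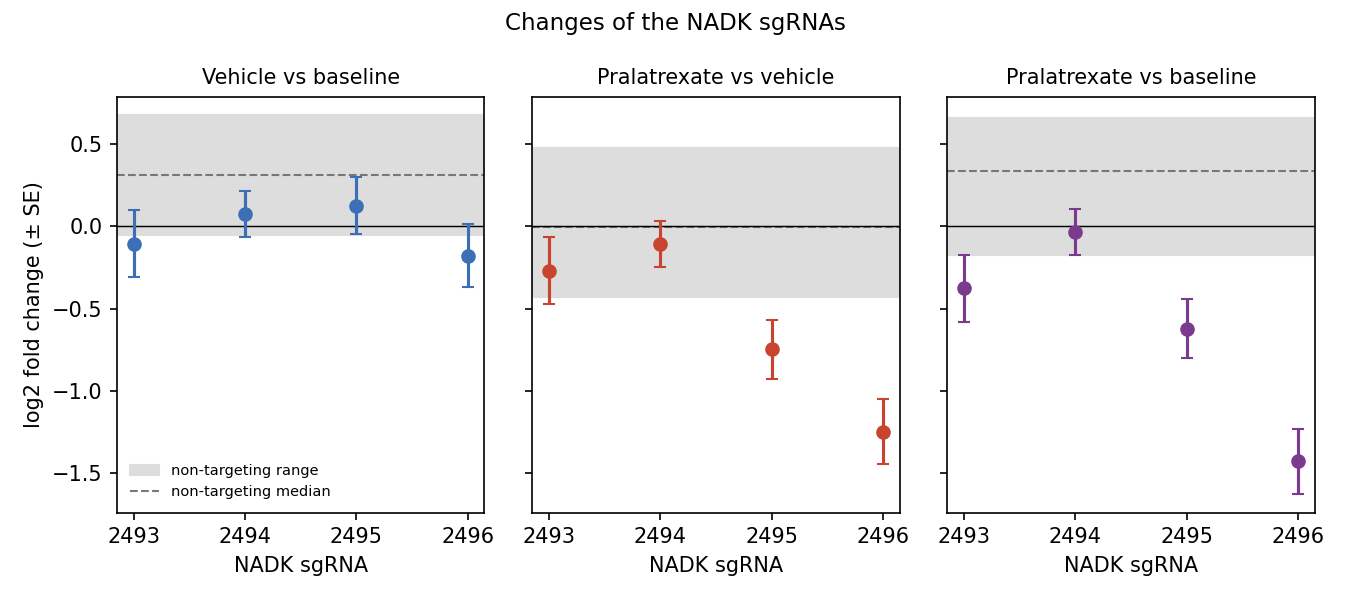
Log2 fold changes of the 4 NADK sgRNAs (points, with SE of the edgeR fit to 9 libraries) in 3 comparisons, with the range (grey band) and median (dashed line) of 99 non-targeting sgRNAs. Pralatrexate values of 2495 and 2496 lie below the band against vehicle and against baseline, and in vehicle against baseline the NADK values lie between −0.18 and 0.13 while the non-targeting median is 0.31.

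From baseline to pralatrexate, which holds the same pralatrexate libraries and is likewise a description, the mean log2 fold change of NADK was −0.62. The sgRNA values were −0.38 ± 0.20 (SE) for 2493, −0.04 ± 0.14 for 2494, −0.62 ± 0.18 for 2495 and −1.43 ± 0.20 for 2496. The non-targeting median was 0.34, and against it the NADK mean was −0.95. sgRNA 2494 lay within the non-targeting range, and the other 3 lay below its lowest value of −0.17. Counted from the lowest of 3145 sgRNAs, 2496 was in place 119, 2495 in place 290 and 2493 in place 455. Many other sgRNAs of the library thus also lay below the non-targeting range.

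The NADK sgRNAs differed among themselves in pralatrexate against vehicle. The SD over its 4 log2 fold changes against vehicle was 0.513, the 6th largest of 763 genes, where the median gene had 0.137. NADK was selected on these same values, so this place is a description. Other genes with reduced sgRNAs were set beside it. CDK12, a kinase of transcription elongation, had a mean of −0.64 with sgRNAs from −0.95 to −0.32 and an SD of 0.258. PIK3R1, a regulatory subunit of PI3K, had a mean of −0.40 with sgRNAs from −0.49 to −0.30 and an SD of 0.0813. The SD of NADK2 was 0.0718. The values of NADK span more than the sgRNAs of each of these genes, from −1.25 to −0.11. From baseline to pralatrexate, the SD of NADK was 0.592, in place 54 of 763, next to CDK12 with 0.566 in place 56. Leaving out NADK, which was selected on this contrast, 0.394% of the 762 other genes were called lower in pralatrexate, namely CDK12, PIK3R1 and TAF9, and 0% were called higher (41 genes at an unadjusted p under 0.05, 1 in the limma fit, PFKL, and 1 by edgeR on summed reads, CAD, both named after their values were seen).

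Of the 3 genes closest to NADK in the pathway, rank aggregation called 0 in either comparison. NADK2, the mitochondrial enzyme, was at 8.38 ± 0.04 log2 CPM at baseline, 8.58 ± 0.11 under vehicle and 8.46 ± 0.03 under pralatrexate (SD, n = 3). Its mean change was 0.21 in vehicle against baseline (adjusted p = 0.634, rank aggregation). NADK2 was called higher there in the limma fit on gene means (0.20, adjusted p = 0.0423), which called 69 genes higher. That call is relative to 0. Set against the non-targeting median, the NADK2 mean was −0.11, and a difference from the non-targeting sgRNAs was not tested. In pralatrexate against vehicle the mean change of NADK2 was −0.12 (adjusted p = 0.983, rank aggregation), with a 95% interval of −0.27 to 0.03 in the limma fit. All 4 NADK2 sgRNAs were below 0 there, from −0.19 to −0.06, and each lay within the non-targeting range. NMRK1 was at −0.03 (−0.20 to 0.14) and NMRK2 at −0.00 (−0.18 to 0.15) in the same comparison. A difference between NADK and NADK2 under pralatrexate was not tested, because NADK was chosen on that contrast.

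Other metabolic enzyme genes of the library, most of them kinases, were grouped in 5 lists, which with the NAD kinases made 56 genes beside NADK. Pralatrexate against vehicle called 0 of the 56, with a median log2 fold change of 0.01, the same as over the other 762 genes (0.01), of which 3 were called. At an unadjusted p under 0.05 it was 1 lower and 6 higher, where all 763 genes, NADK included, gave 30 lower and 41 higher. The only adjusted call among the 56 by another tool was CAD, higher by edgeR on summed reads. Individual values ran from −0.22 to 0.27. Vehicle against baseline called 5 of the 56 lower and none higher, with a median of 0.04 against 0.02 over all other genes, and the same 5 were called lower whichever library was left out. Over all 763 genes the shares were the 6.68% lower and 0.393% higher given above. At an unadjusted p under 0.05 the counts of the 56 were 8 lower and 5 higher, in the limma fit 10 lower and 5 higher, and by edgeR on summed reads 10 lower and 13 higher. The same counts over all 763 genes were 115 lower and 60 higher unadjusted. They were 151 and 69 in the limma fit, and 160 and 110 on summed reads.

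Among 9 kinases of vitamin-derived cofactors the median change under pralatrexate was 0.09, and PANK1, which starts coenzyme A synthesis, was highest at 0.17. COASY, which completes coenzyme A, was the member called lower in vehicle against baseline (−1.50, adjusted p = 0.00603, rank aggregation) and was at −0.02 under pralatrexate. The next list held genes of sugar phosphorylation, the pentose phosphate branch and phosphoribosyl pyrophosphate synthesis. It also held ALDH18A1, an NADPH-using enzyme of proline synthesis that belongs to none of these. The median of its 13 genes was 0.01. ALDH18A1 was lowest at −0.22, and the lowest of the others was at −0.11. PRPS1L1, a phosphoribosyl pyrophosphate synthetase, was highest at 0.11. Rank aggregation called 0 genes of this list in either comparison. HK2, a hexokinase, was the nearest in vehicle against baseline (−0.74, adjusted p = 0.0532), and it was called with DESeq2 statistics, with the compared groups fitted alone, in the limma fit, by edgeR on summed reads, and when baseline library 1, vehicle library 3 or pralatrexate library 3 was left out.

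The 10 genes of thymidylate and pyrimidine nucleotide supply, the branch nearest to the antifolate's own pathway, had a median of 0.05 under pralatrexate. They ran from −0.05 for TK1, which salvages thymidine, to 0.27 for CAD, which begins pyrimidine synthesis. In vehicle against baseline CAD fell by 1.23 and DTYMK, which phosphorylates thymidine monophosphate, fell by 2.42 on the log2 scale (adjusted p = 0.00495 and 0.00333, rank aggregation). Of 11 purine nucleotide kinases, GUK1, the guanylate kinase, fell by 2.16 in vehicle against baseline (adjusted p = 0.00333, rank aggregation). Under pralatrexate that list had a median of 0.01, between −0.11 for AK7 and 0.10 for AK8, both adenylate kinases. Of 10 genes of the nucleoside diphosphate kinase family, NME6 fell by 1.03 in vehicle against baseline (adjusted p = 0.00538, rank aggregation), and under pralatrexate the list ran from −0.15 for NME6 to 0.12 for NME8 with a median of −0.06. The 5 genes called in vehicle against baseline thus had pralatrexate against vehicle values between −0.15 and 0.27. NADK was at −0.02 in the former (−0.34 against the non-targeting median) and at −0.59 in the latter. NADK was selected on the latter, so its difference from these 5 genes was not tested.

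**Figure D4:**
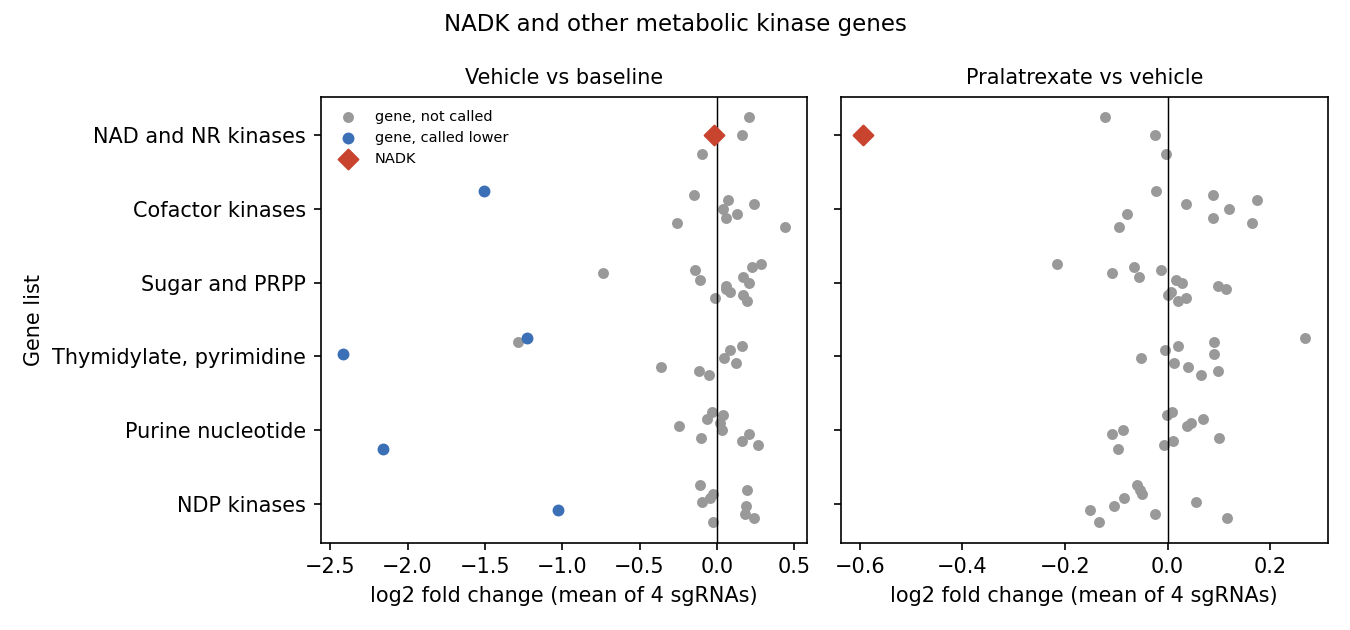
Mean log2 fold change over sgRNAs of NADK (red diamond) and of 56 other genes in 6 lists, in vehicle against baseline (left) and pralatrexate against vehicle (right), with genes called lower in blue; the panels have different horizontal scales. NADK lies at −0.02 on the left, where 5 other genes were called by rank aggregation. On the right, the contrast on which NADK was selected, it lies at −0.59. None of the 56 was called there, and their values run from −0.22 to 0.27.

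Likeness to NADK was measured as Pearson's r of the gene means of log2 CPM over the 9 libraries. These libraries share 3 conditions, their scaling and the libraries by which NADK was selected, so r is a description. The nearest of 762 genes were TAF9, a subunit of transcription complexes, with r = 0.966, and MAST4, a serine/threonine kinase, with 0.944. CDK12 followed with 0.893, NME9 with 0.859 and MPP2, a membrane-associated scaffold protein, with 0.819. Their pralatrexate against vehicle values were −0.36, −0.27, −0.64, −0.13 and −0.15 in that order, and their vehicle against baseline values −0.09, 0.02, −0.54, −0.03 and −0.07. Of these 5, CDK12 lay farthest from NADK in vehicle against baseline, where it was not called (adjusted p = 0.0654, rank aggregation). NADK2 stood at place 320 with r = 0.131.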

How the data were processed

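The sgRNA counts of 9 libraries are as the authors deposited them: reads of genomic DNA amplicons assigned to Brunello kinome sgRNAs, with Bowtie 1.0.0 named in the submitters' processing notes. The authors' gene tables hold their own fold changes, scores and p-values and were not used. Groups come from the labels. sgRNAs with a mean under 30 reads were left out (7 of 3152). The counts were scaled by TMM and fitted over all 9 libraries with edgeR 4.0.16 (quasi-likelihood, R 4.3.3), and p-values were adjusted by Benjamini-Hochberg over all 3145 sgRNAs. Gene calls came from robust rank aggregation with an exact null over sgRNAs with p up to 0.25 (adjusted p under 0.05 over 763 genes, each direction on its own). A gene's change is the mean over its sgRNAs, and log2 CPM used a prior count of 2. limma 3.58.1 on gene means, DESeq2 1.42.0, summed reads, other scalings, filters and leaving out each library were alternatives. The steps were tested on simulated data.

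NADK and all gene lists were chosen with earlier results of these data known. Named genes were NADK, the NAD and nicotinamide riboside kinases, called genes and both extremes under pralatrexate of each list, the 5 genes most like NADK, and CDK12 and PIK3R1 for spread. One gene that this rule names is not reported here. In the data, same-numbered vehicle and pralatrexate libraries deviated together (correlations 0.175, 0.198 and 0.188), so differences by library number took them as pairs. The main fit held the group only, so its standard errors, p-values and calls do not use this pairing. The number entered as a block in an alternative fit. Baseline numbers did not pair (correlations −0.03 to 0.07).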

Additional observations from a re-analysis of the deposited data

How the results depend on the processing

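NADK was not called in vehicle against baseline under any of 19 alternatives (adjusted p 0.815 to 1). Those on rank aggregation order sgRNAs against one another, so non-targeting scaling could hardly change that call. The NADK value in vehicle against baseline turned to 0.0021 with scaling on total reads and to 0.031 without sgRNA 2496. Leaving out a library gave −0.05 to −0.01. In pralatrexate against vehicle it stayed below 0 throughout: −0.51 on summed reads, −0.38 without 2496 and −0.65 to −0.54 when a library was left out. Against baseline these were −0.53, −0.34 and −0.67 to −0.57, and −0.92 with non-targeting scaling. Counts moved more. With NADK left out, 3 of 762 genes were called lower in pralatrexate against vehicle. Counted over all 763, calls in either direction were 7 on summed reads and 1 to 5 without a library. They were 1 without vehicle library 2 and 2 without pralatrexate library 2. NADK was selected on this contrast, so these counts carry no test of it. In vehicle against baseline they were 54, or 270 on summed reads, 220 in limma and 51 to 58 without a library. sgRNAs called there were 598 (32.9% of them higher), or 1402 with non-targeting scaling (0.927% higher) and 443 to 628 without a library.

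Single sgRNA values near 0 changed sign. In vehicle against baseline, 2494 and 2495 were at −0.26 and −0.20 with non-targeting scaling. Without a library, 2493 ranged from −0.28 to 0.051 and 2494 from −0.0051 to 0.14, and from baseline to pralatrexate 2494 ranged from −0.11 to 0.042. With the replicate number as a block, NADK was at −0.60 in pralatrexate against vehicle and −0.03 in vehicle against baseline (adjusted p = 1, rank aggregation), and the block changed no count of calls by over 1.5 times.

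With 4 sgRNAs and 3 libraries a group, vehicle against baseline intervals of single NADK sgRNAs were 0.57 to 0.83 wide on the log2 scale.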
